A study of Mus musculus with 6 samples.

Results

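The genes described here encode AMP-activated protein kinase (AMPK) and its activating kinase: the catalytic subunits Prkaa1 and Prkaa2, the scaffold subunits Prkab1 and Prkab2, the nucleotide-binding subunits Prkag1, Prkag2 and Prkag3, and Stk11, which encodes LKB1. They were taken by symbol, as 8 named genes of the 22272 distinct symbols in the count table, and all 8 passed the filter on low counts that left 12166 genes for testing. RNA was measured in 6 libraries of C2C12, an established line of mouse myoblasts, undifferentiated and taken at day 0. In 3 libraries the cells carried green fluorescent protein (GFP) and are labelled wild type, and in 3 they overexpressed ChREBP-beta, the short form of the glucose-responsive transcription factor encoded by Mlxipl. The series is about ChREBP in skeletal muscle and intramuscular fat, and the comparison asks which transcripts differ when the factor is overexpressed. The sources used here do not give the vector, its promoter or whether the cells were a clone, and the labels do not tie replicates to separate cultures, so the p-values speak only to the spread of these libraries, which may be technical.

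AMPK senses a fall in cellular energy. Its alpha subunit carries the kinase domain, the beta subunit holds the complex together and binds glycogen, and the gamma subunit binds AMP, ADP and ATP. LKB1, or in response to calcium the kinase CaMKK2, phosphorylates alpha in its activation loop. In adult skeletal muscle the alpha2, beta2 and gamma3 isoforms are prominent, and alpha1 is found in most cells. Active AMPK phosphorylates acetyl-CoA carboxylase and other enzymes to restrain the making of fat and promote its use, and in liver it phosphorylates ChREBP itself and lowers its binding to DNA. Transcript counts measure neither the kinase proteins nor their phosphorylation.

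Prkaa2 showed the largest rise among the 8 genes and Prkaa1 stayed within the spread between libraries, so the 250 bases before the start of each are shown for comparison (RefSeq, GRCm38.p6, 5' to 3'). The Prkaa1 stretch lies at chr15:5143611-5143860 on the plus strand and the Prkaa2 stretch at chr4:105109899-105110148 on the minus strand. Capitals mark GGGCGG or its reverse complement CCGCCC, the core of the GC box, and neighbouring matches can overlap.
Prkaa1: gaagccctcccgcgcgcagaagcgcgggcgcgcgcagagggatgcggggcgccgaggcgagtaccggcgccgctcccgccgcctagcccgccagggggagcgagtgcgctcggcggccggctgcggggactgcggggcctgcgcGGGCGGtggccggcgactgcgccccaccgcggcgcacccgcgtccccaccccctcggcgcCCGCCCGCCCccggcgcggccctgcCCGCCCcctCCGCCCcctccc
Prkaa2: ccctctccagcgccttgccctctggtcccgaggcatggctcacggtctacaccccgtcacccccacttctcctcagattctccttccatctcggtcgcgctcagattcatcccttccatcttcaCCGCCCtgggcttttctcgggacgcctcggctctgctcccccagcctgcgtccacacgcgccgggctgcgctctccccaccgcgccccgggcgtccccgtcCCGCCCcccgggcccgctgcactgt
The Prkaa1 stretch holds 5 such matches at a GC content of 85.2%, and the Prkaa2 stretch holds 2 at 70.0%. The median GC content of this stretch over all RefSeq windows is 52.4%. RefSeq windows of 300 bases, 250 before and 50 after a start, were found for 8 of 8 genes, with 10 windows in all because Prkag2 has several starts. GGGCGG on either strand occurred in 7 of these 10 windows and in 35.7% of all 32851 windows. CACGTG, the E-box core to which ChREBP and Mlx bind, reads the same on both strands and occurred in 0 of the 10 windows and in 7.15% of all windows. CAGCTG, an E-box form bound by myogenic factors, occurred in 1 of the 10, that of Prkag3, and in 16.3% of all windows. The searches for CAGCTG and GGGCGG were added after the counts were seen. CACGTG was likewise absent from the windows of Acaca and Txnip, named below as known ChREBP targets. All matches describe the letters of short windows only, and binding was not tested.

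Of the 8 genes, 5 passed the test (quasi-likelihood test of edgeR, with an adjusted p under 0.05), 2 higher and 3 lower with ChREBP-beta. That share, 62.5%, lies near the 58.7% of all 12166 tested genes that passed, so the number of changed genes does not set this family apart. By direction, 25% of the family was higher and 37.5% lower, against 29.5% and 29.3% of all tested genes. The median log2 fold change was 0.00 both for the 8 genes and for all genes tested. The 5 genes that passed were also those whose libraries did not overlap between groups, where 63.2% of all tested genes had groups that did not overlap. At least 2-fold changes were found for 2 of the 8, Prkaa2 and Prkag3, and for 11.5% of all tested genes. When libraries were scaled by size alone, 1 gene was called higher and 3 lower, beside 7155 of all 12166 tested genes called in either direction.

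**Figure D1:**
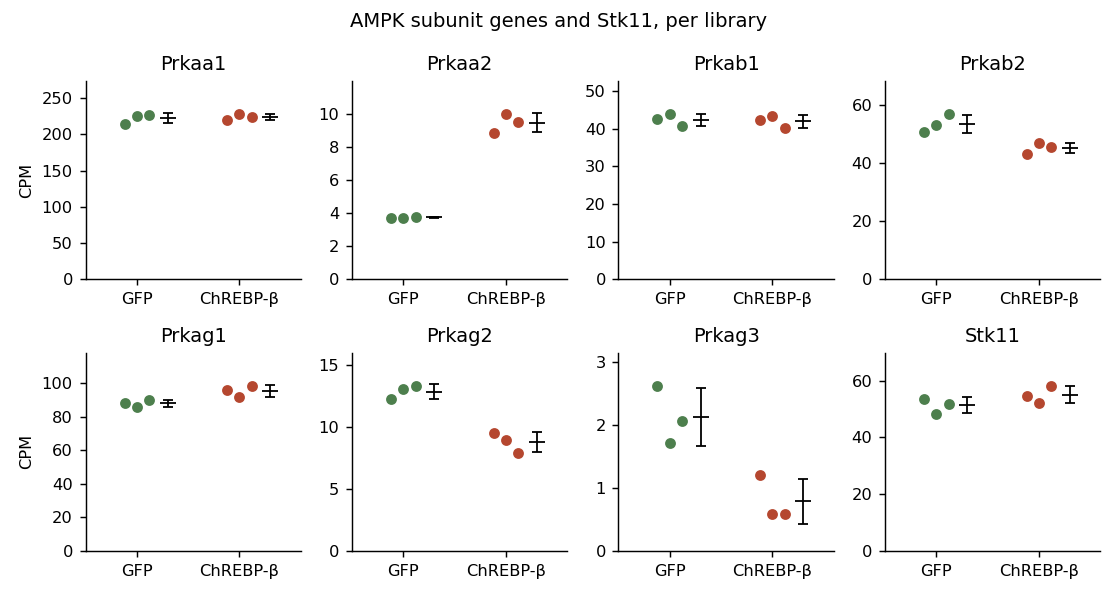
Scaled counts (CPM, each vertical axis starting at 0) of the 7 AMPK subunit genes and Stk11 in the 3 GFP and the 3 ChREBP-beta libraries (points), with the mean and SD of each group beside them (bars). Prkaa2 lies higher in all ChREBP-beta libraries, at 8.87 to 9.99 against 3.71 to 3.79 CPM, and Prkab2, Prkag2 and Prkag3 lie lower.

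Of the catalytic subunits, Prkaa2 rose and Prkaa1 was not called. Prkaa2 (ENSMUSG00000028518.8; chromosome 4, 105029874 to 105109890, minus strand, GRCm38), which encodes alpha2, had 71, 67 and 68 counts in GFP replicates 1 to 3 and 163, 188 and 165 counts in ChREBP-beta replicates 1 to 3. Scaled to library size with TMM factors (CPM, counts per 1000000 counts of the scaled library) these were 3.71, 3.71 and 3.79 CPM in GFP cells and 8.87, 9.99 and 9.54 CPM in ChREBP-beta cells. The lowest ChREBP-beta library was above the highest GFP library. Prkaa2 rose 2.53-fold, from 3.74 ± 0.0451 to 9.47 ± 0.566 CPM (SD, n = 3), with a log2 fold change of 1.34 (SE 0.145; edgeR adjusted p = 2.06e-08).

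Prkaa1 (ENSMUSG00000050697.9; chromosome 15, 5143861 to 5181899, plus strand), which encodes alpha1, had 4097, 4091 and 4076 counts with GFP and 4037, 4296 and 3869 with ChREBP-beta. Its CPM ran from 214 to 227 in the GFP libraries and from 220 to 228 in the ChREBP-beta libraries, and these ranges overlapped. The log2 fold change of Prkaa1 was 0.01, with a 95% interval from -0.06 to 0.07 (edgeR adjusted p = 0.826). The interval thus runs from a ratio of 0.961 to one of 1.05.

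Among the scaffold subunits, Prkab2 fell slightly. Prkab2 (ENSMUSG00000038205.12; chromosome 3, 97658193 to 97673812, plus strand), which encodes beta2, was read at 50.6, 53.1 and 56.8 CPM in GFP cells and at 43.2, 46.7 and 45.4 CPM in ChREBP-beta cells. All ChREBP-beta libraries were below all GFP libraries, although the gap between the nearest of them was smaller than the range within GFP. The change was 1.18-fold lower (log2 fold change -0.24, SE 0.0563, edgeR adjusted p = 0.00063). Prkab1 (ENSMUSG00000029513.14; chromosome 5, 116013586 to 116024508, minus strand), which encodes beta1, was read at 42.5, 43.9 and 40.8 CPM in GFP cells and at 42.2, 43.5 and 40.1 CPM in ChREBP-beta cells. Its groups overlapped, and its log2 fold change of -0.01 had a 95% interval from -0.13 to 0.10 (edgeR adjusted p = 0.837).

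Among the gamma subunits, the less abundant isoforms fell and the most abundant one rose slightly, a rise that depended on the scaling and on single libraries. Prkag3 (ENSMUSG00000006542.13; chromosome 1, 74738922 to 74749221, minus strand), which encodes the gamma3 isoform of fast skeletal muscle, had 50, 31 and 37 counts with GFP and 22, 11 and 10 with ChREBP-beta. In CPM these were 2.62, 1.71 and 2.06 against 1.2, 0.585 and 0.578. The groups did not overlap, and ChREBP-beta replicate 1 stood about as close to the lowest GFP library as to the other ChREBP-beta libraries. Prkag3 fell 2.69-fold (log2 fold change -1.43, SE 0.359, edgeR adjusted p = 0.00147). Its counts, 118 in all GFP libraries together and 43 in all ChREBP-beta libraries, were the lowest of the 8 genes and left a 95% interval from -2.17 to -0.69.

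Prkag2 (ENSMUSG00000028944.14; chromosome 5, 24862744 to 25100642, minus strand), which encodes gamma2, the isoform known for mutations that cause heart disease with glycogen storage, was read at 12.2, 13.0 and 13.3 CPM in GFP cells. With ChREBP-beta it was read at 9.52, 8.93 and 7.86 CPM, below every GFP library. Prkag2 fell 1.46-fold (log2 fold change -0.55, SE 0.110, edgeR adjusted p = 0.00015). The gene is transcribed from several starts into long and short forms, which counts per gene do not separate.

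Prkag1 (ENSMUSG00000067713.7; chromosome 15, 98812797 to 98831521, minus strand), which encodes the widely expressed gamma1, was read at 88.3, 85.7 and 89.9 CPM in GFP cells and at 95.9, 91.5 and 98.5 CPM in ChREBP-beta cells. The groups did not overlap, but the nearest libraries differed by less than the range within either group. Prkag1 rose 1.08-fold (log2 fold change 0.11, SE 0.0404, edgeR adjusted p = 0.0182). This call was lost with library size alone (log2 fold change 0.07, adjusted p = 0.156), with upper-quartile scaling (0.08, adjusted p = 0.0856), without GFP replicate 2 (0.10, adjusted p = 0.0679) and without ChREBP-beta replicate 3 (0.09, adjusted p = 0.0919), all by edgeR. Over all alternatives its edgeR, DESeq2 or limma adjusted p ran from 0.00913 to 0.156.

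Stk11 (ENSMUSG00000003068.16; chromosome 10, 80115803 to 80130682, plus strand), which encodes the kinase that activates AMPK, was read at 53.7, 48.2 and 51.9 CPM in GFP cells and at 54.6, 52.3 and 58.2 CPM in ChREBP-beta cells. The groups overlapped, with ChREBP-beta replicate 2 inside the GFP range. The log2 fold change of Stk11 was 0.10, with a 95% interval from -0.01 to 0.22 (edgeR adjusted p = 0.126). In 3 of the 6 libraries its counts were not whole, so some of its reads were divided with another gene. These counts were 1026.96 and 870.99 in GFP replicates 1 and 2 and 983.89 in ChREBP-beta replicate 2, each close to a whole number. The annotation places 232 bases of exons of Cbarp on the opposite strand across those of Stk11, and the counting is not stated to use strand. Cbarp itself was read at 8.46 CPM in GFP cells and 5.92 CPM in ChREBP-beta cells (log2 fold change -0.52, edgeR adjusted p = 0.00343). The other 7 genes had whole counts in every library. Antisense transcripts overlap the exons of Prkag1 over 950 bases and those of Prkag2 over 795 and 142 bases, and their reads cannot be told apart from those of the sense genes without strand.

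**Figure D2:**
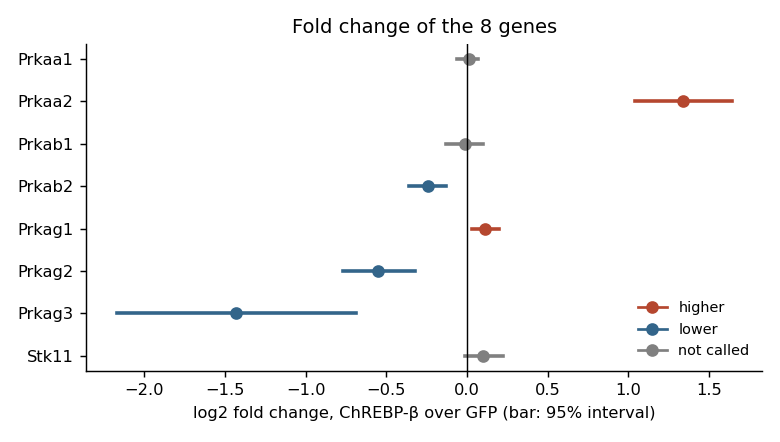
Log2 fold change of ChREBP-beta over GFP for the 8 genes, with 95% intervals from the edgeR fit. Intervals of Prkaa1 (-0.06 to 0.07), Prkab1 (-0.13 to 0.10) and Stk11 (-0.01 to 0.22) include 0, and that of Prkag3 (-2.17 to -0.69) is the widest.

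The library labels were checked on Mlxipl, which was read at 0.599 ± 0.111 CPM in GFP cells and 219 ± 3.85 CPM in ChREBP-beta cells (SD, n = 3). Reads of the introduced gene and of the endogenous one are counted together. Library totals ran from 17600238 to 19163834 counts. Markers of muscle were lower, as were Prkab2, Prkag2 and Prkag3, while Prkaa2 and Prkag1 were higher. Prkaa2 encodes alpha2, named above among the isoforms prominent in adult muscle. Of all tested genes 29.3% were lower and 29.5% higher. All 5 myoblast markers (Myod1, Myf5, Des, Cdh15 and Cdh2) were lower. Their summed level was 440 to 465 CPM in GFP cells and 224 to 235 CPM in ChREBP-beta cells. Des and Cdh2 made up most of that sum and fell 2.82-fold and 1.18-fold. Myod1 fell 24.9-fold, from 30.8 to 1.23 CPM, Cdh15 16.8-fold, from 15.8 to 0.939 CPM, and Myf5 2.86-fold. Of 6 markers of differentiated muscle, 4 were tested and 4 were lower, and the list's sum ranged from 9.94 to 12.1 CPM in GFP cells and from 1.28 to 2.20 CPM in ChREBP-beta cells. Among these, Myog, which commits myoblasts to fusion, had 0 counts in each ChREBP-beta library. Of 5 fibro-adipogenic markers 4 were higher and 1, Dcn, was 3.9-fold lower, from 8.3 to 2.12 CPM. Their sum was 271 to 279 CPM in GFP cells and 407 to 418 CPM in ChREBP-beta cells. Ly6a, at 238 and 358 CPM, made up most of it. Of 4 adipocyte markers only Fabp4 could be tested, and it rose 6.69-fold, from 0.367 ± 0.199 to 2.47 ± 0.409 CPM (SD, n = 3; adjusted p by edgeR 2.45e-06). The sum of that list ranged from 0.209 to 0.669 CPM in GFP cells and from 2.25 to 3.48 CPM in ChREBP-beta cells, and Adipoq was at or near 0 in every library. Endothelial markers were not called, and their sum ranged from 0.680 to 4.18 CPM in GFP cells, lowest in replicate 1, where Kdr was at 0, and from 2.20 to 5 CPM in ChREBP-beta cells. In these bulk libraries fewer cells of a type and less RNA per cell cannot be told apart, and the part of these markers in the changes of the AMPK genes was not tested. The hepatocyte marker Alb had 16.3 CPM in GFP replicate 3, 0.105 and 0 CPM in GFP replicates 1 and 2, and 9.77 to 14.9 CPM in ChREBP-beta cells. Apoa1, Ttr and Serpina1a were likewise at or near 0 CPM in GFP replicates 1 and 2 and higher in the other libraries. Within the GFP group Prkaa2 stood at 3.79 CPM in replicate 3 and at 3.71 CPM in replicates 1 and 2. Without GFP replicate 3, 5 of the 8 genes were called, beside 6823 of all 12289 genes tested in that fit. That fit cannot separate the groups from Alb, which is then near 0 in every GFP library and present in every ChREBP-beta library.

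Per length, Prkaa1 and Prkag1 were the most abundant of the 8 transcripts. Levels were taken as CPM per kilobase of the union of annotated exons. With GFP the order was Prkaa1 at 47.8 ± 1.55, Prkag1 at 40.4 ± 0.975, Prkab1 at 13.8 ± 0.506, Stk11 at 11.2 ± 0.612, Prkab2 at 10.5 ± 0.612, Prkag2 at 1.98 ± 0.0878, Prkag3 at 0.578 ± 0.125 and Prkaa2 at 0.469 ± 0.0058 CPM per kilobase (SD, n = 3). The ranges of Stk11 and Prkab2 overlapped, as did those of Prkag3 and Prkaa2, and the other neighbours did not. With ChREBP-beta Prkaa2 stood at 1.19 ± 0.0707 and Prkag3 at 0.214 ± 0.0970 CPM per kilobase, and the range of Prkaa2 overlapped that of Prkag2, at 1.35 ± 0.130. The order of the more abundant genes was otherwise the same in both groups, from Prkaa1 at 48.1 ± 0.859 and Prkag1 at 43.8 ± 1.63 down to Prkab2 at 8.85 ± 0.347 CPM per kilobase. The order depended on the length used. Per kilobase of the longest transcript Prkag1, at 53.2 ± 1.28, was above Prkaa1, at 47.8 ± 1.55, in GFP cells. Per kilobase of coding sequence Prkab2, at 65.8 ± 3.84, was above Prkab1, at 52.3 ± 1.92, and Stk11, at 39.2 ± 2.14, and Prkaa2, at 2.26 ± 0.0279, was above Prkag3, at 1.45 ± 0.313 (SD, n = 3). Under each of the 3 lengths Prkaa1 and Prkag1 ranked above the other 6 genes, and Prkag2, Prkag3 and Prkaa2 below the rest.

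Per length, alpha1 and gamma1 made up most of the alpha and gamma transcripts, with gamma1 at 94.0% ± 0.047 in GFP cells and 96.5% ± 0.496 in ChREBP-beta cells (SD, n = 3). Prkaa2 made up 0.974% ± 0.0264 of the alpha transcripts per length with GFP and 2.40% ± 0.101 with ChREBP-beta (SD, n = 3). The alpha sum was 48.2 ± 1.54 and 49.3 ± 0.920 CPM per kilobase, a difference smaller than the spread within GFP. Prkab2 made up 43.1% ± 2.09 and 39.3% ± 1.21 of the beta transcripts, whose sum was 24.3 ± 0.442 and 22.6 ± 0.714 CPM per kilobase. With coding length in place of all exons, Prkab2 was the larger part of beta, at 55.7% and 51.7%, so which beta isoform led depended on the length used. Prkag2 made up 4.61% ± 0.230 and 2.99% ± 0.341 of the gamma transcripts and Prkag3 1.34% ± 0.277 and 0.470% ± 0.208. With coding length in place of exon length the share of Prkaa2 was 1.67% and 4.10% and that of Prkag2 7.72% and 5.07%. With the longest transcript the share of Prkag2 was 6.65% and 4.35%. The length of a gene is the same in both groups, so the direction of the alpha and beta share differences cannot depend on it. The gamma shares kept their direction under the 3 lengths, which had little room to change it.

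**Figure D3:**
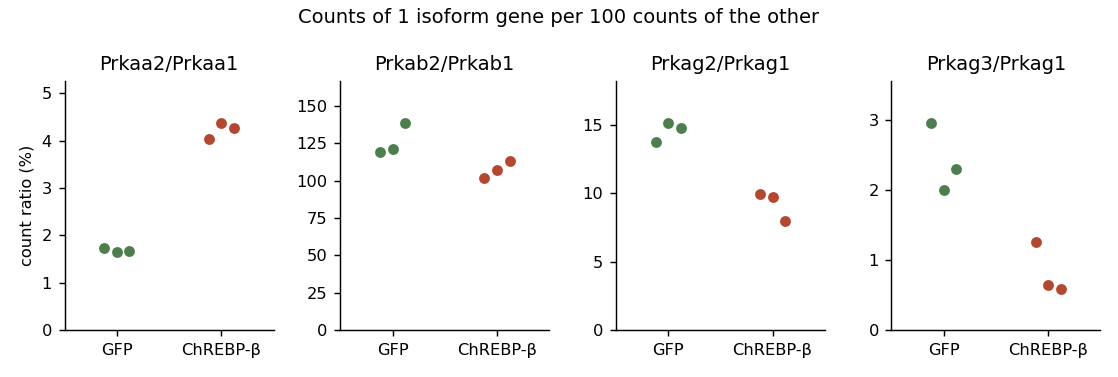
Counts of Prkaa2 per 100 counts of Prkaa1, of Prkab2 per 100 of Prkab1, and of Prkag2 and Prkag3 per 100 of Prkag1, in each library (points; vertical axes start at 0). All ChREBP-beta libraries lie above the GFP libraries for Prkaa2/Prkaa1, at 4.04 to 4.38 against 1.64 to 1.73, and below them for the other ratios.

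Ratios within a library do not depend on how libraries are scaled. There were 1.73, 1.64 and 1.67 counts of Prkaa2 per 100 of Prkaa1 in GFP replicates 1 to 3, and 4.04, 4.38 and 4.26 in ChREBP-beta replicates 1 to 3. The ratio was 2.52-fold higher with ChREBP-beta, a difference of 1.33 on the log2 scale. The ratio of Prkab2 to Prkab1 was 1.17-fold lower (log2 difference -0.23), from 119, 121 and 139 to 102, 107 and 113 counts per 100. The ratio of Prkag2 to Prkag1 was 1.59-fold lower (log2 difference -0.67), from 13.8, 15.2 and 14.8 to 9.93, 9.76 and 7.98. The ratio of Prkag3 to Prkag1 was 3.07-fold lower (log2 difference -1.62), from 2.96, 2 and 2.29 to 1.25, 0.639 and 0.587. None of the 4 ratios overlapped between groups, and neither did 63.2% of all tested genes taken singly. Each ratio holds a gene (Prkaa2, Prkab2, Prkag2 or Prkag3) whose own groups did not overlap. Each ratio gave p = 0.1 in the two-sided exact permutation test, before and after adjustment over the 4. That is the smallest p that 3 against 3 libraries allow, so the design could not reach 0.05.

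Other genes were compared with 3 of the 8 by the root mean square difference of log2 CPM over the 6 libraries, each gene centred on its own mean, among 9752 genes with a mean of at least 5 CPM. Nearest to Prkaa2 were Ptpn22 (0.0323), Ccnd1 (0.0442) and Fbln2 (0.0453), which went from 22.1 to 54.2, 292 to 741 and 347 to 832 CPM. Nearest to Prkaa1 were Map3k3 (0.0118), Cdr2 (0.0132) and Fmnl3 (0.0134), and nearest to Stk11 were Zdhhc8 (0.00961), Senp3 (0.0252) and Alg9 (0.0254). The measure mainly follows the difference between the groups. The genes nearest Prkaa2 had log2 fold changes of 1.29, 1.34 and 1.26. Those nearest Prkaa1 had 0.01 to 0.02 and those nearest Stk11 0.08 to 0.13. Shared regulation was not tested.

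Around the kinase, the list of upstream factors and partners had 15 of 18 members called, or 83.3% against 58.7% of all tested genes. The median log2 fold change was -0.05, against 0.00 for all genes. Of the list 7 were higher and 8 lower, or 38.9% and 44.4%, against 29.5% and 29.3% of all tested genes. Groups did not overlap for 77.8% of the list, against 63.2% of all tested genes. The calcium-dependent kinases that phosphorylate alpha moved apart. Camkk2 was read at 60.7, 61.0 and 62.6 CPM in GFP cells and 91.3, 90.9 and 89.8 CPM in ChREBP-beta cells, and rose 1.48-fold (edgeR adjusted p = 1.89e-11). Camkk1 fell 1.71-fold, from 14.9 ± 0.885 to 8.70 ± 1.35 CPM (SD, n = 3; adjusted p by edgeR 2.70e-06). For both the groups did not overlap.

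The sestrins, stress-inducible proteins that act on AMPK and mTORC1, were lower in 2 of 3 cases. Sesn1 was read at 64.4, 61.0 and 60.3 CPM in GFP cells and at 40.3, 37.5 and 38.7 CPM in ChREBP-beta cells, and fell 1.59-fold (edgeR adjusted p = 9.11e-11). Sesn3 fell 1.88-fold, from 58.7 ± 1.29 to 31.2 ± 1.61 CPM (SD, n = 3; adjusted p by edgeR 7.50e-13). Libraries of the groups did not overlap for either gene. Sesn2 had a log2 fold change of -0.01, with a 95% interval from -0.22 to 0.19 (edgeR adjusted p = 0.931). The folliculin partners, which bind AMPK, also split: Fnip1 fell 1.28-fold, from 84.3 to 66.0 CPM, and Fnip2 rose 1.38-fold, from 32.5 to 44.7 CPM (edgeR adjusted p = 3.39e-07 and 1.69e-06). Of the proteins that hold LKB1 in its active complex, Cab39 was 1.16-fold and Cab39l 1.22-fold higher, and Strada was 1.17-fold and Stradb 1.34-fold lower (edgeR adjusted p = 2.47e-05, 5.60e-05, 0.0318 and 0.00124). The groups overlapped for Strada.

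**Figure D4:**
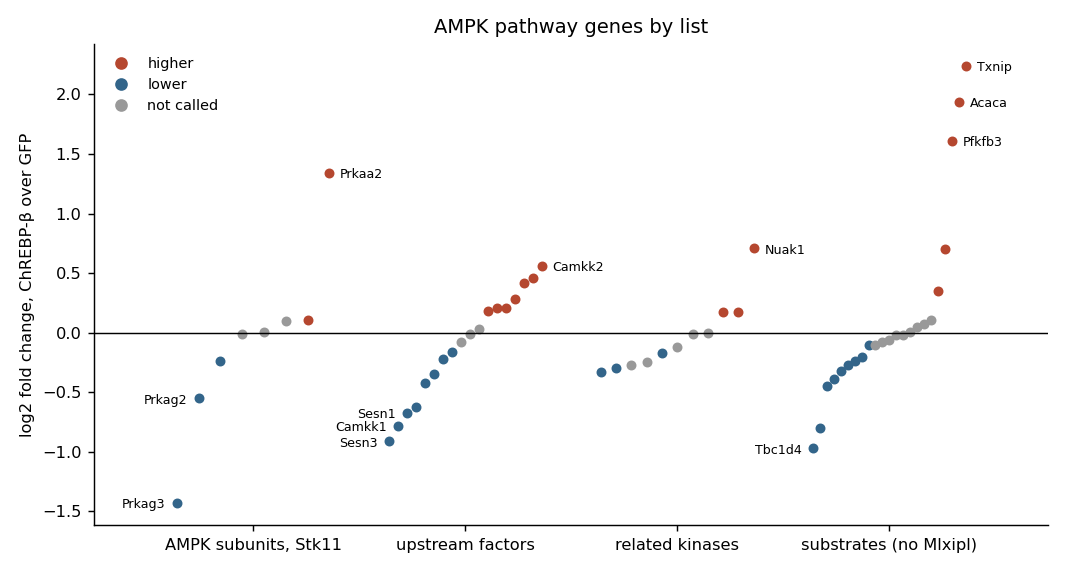
Log2 fold change (ChREBP-beta over GFP) of each tested gene in the 4 lists, ordered by value within a list and coloured by its edgeR call; Mlxipl, at 8.50, is left out of the substrates. Prkaa2 (1.34) and Prkag3 (-1.43) lie farther from 0 than any tested upstream factor or related kinase, and Txnip (2.24), Acaca (1.94) and Pfkfb3 (1.61) are the highest of the substrates shown.

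The kinases related to AMPK, most of which LKB1 also activates, had 11 of 13 members tested, with 3 higher, 3 lower and 5 not called. The called share was 54.5%, near the 58.7% of all tested genes (median log2 fold change -0.12, against 0.00). Groups did not overlap for 9 of the 11, 3 above GFP and 6 below, or 81.8% against 63.2% of all tested genes. Nuak2, Sik1 and Brsk1 were below GFP in this way but were not called. Nuak1, which acts in cell adhesion, was read at 33.2, 33.0 and 29.5 CPM in GFP cells and 52.4, 54.0 and 50.2 CPM in ChREBP-beta cells, and rose 1.64-fold (edgeR adjusted p = 2.60e-10). The other called members changed less. Mark3 and Sik3 rose 1.12-fold each, Snrk fell 1.24-fold, Mark4 1.26-fold and Sik2, whose counts include split reads in all 6 libraries, 1.12-fold (edgeR adjusted p = 0.0011, 0.00287, 0.0041, 0.0083 and 0.0153). The call of Sik2 was lost without GFP replicate 3 and without ChREBP-beta replicate 1 (edgeR adjusted p = 0.0887 and 0.0683). Without the first of these libraries 2 members were called lower, and without the second also 2. With library size alone 5 members were called lower and 3 higher. Mark1 and Brsk2 had too few counts to be tested.

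Genes of AMPK substrates, listed from knowledge of the pathway, had 24 of 25 members tested, with 6 higher, 9 lower and 9 not called. The called share was 62.5%, near the 58.7% of all tested genes (median log2 fold change -0.04, against 0.00). By direction, 25% were higher and 37.5% lower, against 29.5% and 29.3% of all tested genes. Mlxipl is itself in this list, among the 6 higher, and was the overexpressed gene, so its call follows from the design. Acaca, whose product acetyl-CoA carboxylase is the classical AMPK substrate, rose 3.84-fold and was read at 225, 228 and 234 CPM in GFP cells and 903, 864 and 872 CPM in ChREBP-beta cells (edgeR adjusted p = 3.09e-25). Its mitochondrial paralog Acacb fell 1.74-fold at low levels, from 2.19 to 1.25 CPM (edgeR adjusted p = 0.0275). Txnip, an inhibitor of glucose uptake, rose 4.71-fold and Pfkfb3, which makes the activator of phosphofructokinase, 3.06-fold (edgeR adjusted p = 1.60e-20 and 3.25e-17). Acaca and Txnip are also known ChREBP targets.

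Both Rab regulators through which AMPK acts on glucose transporters fell. Tbc1d4 was read at 31.1, 33.9 and 35.5 CPM in GFP cells and 18.4, 16.8 and 16.0 CPM in ChREBP-beta cells and fell 1.96-fold, and Tbc1d1 fell 1.31-fold, from 74.3 ± 3.41 to 56.5 ± 4.08 CPM (SD, n = 3; adjusted p by edgeR 7.47e-11 and 6.54e-07). Gys1, the muscle glycogen synthase that AMPK inhibits, rose 1.28-fold, from 54.9 to 70.1 CPM, with split reads in all 6 libraries (edgeR adjusted p = 5.82e-07). Among the remaining called substrates Lipe, the hormone-sensitive lipase, had a log2 fold change of 0.70 (edgeR adjusted p = 3.96e-05). The others were lower: Pfkfb2 by a log2 fold change of -0.45, Mtfr1l, a regulator of mitochondrial fission, by -0.32, the histone deacetylases Hdac7 and Hdac5 by -0.27 and -0.20, and the transcription factors Foxo3 and Srebf1 by -0.24 and -0.10 (edgeR adjusted p = 0.000255, 2.13e-05, 1.79e-06, 0.00197, 0.00121 and 0.0326). The 9 tested substrates that were not called, among them Ulk1, Becn1 and Rptor, had log2 fold changes from -0.10 (Tsc2) to 0.11 (Hdac4). Ppargc1a, the mitochondrial coactivator, had 22 counts in the sum of GFP libraries and 4 in that of ChREBP-beta libraries and was not tested.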

How the data were processed

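The authors deposited a table of estimated counts per gene symbol, with a column for each of the 6 libraries, not normalized; 7.74% of the values are not whole. The submitters' processing notes list TopHat2 2.0.0, Bowtie2 2.0.0.5 and fastp, with no order or role. They list GRCg6a, which is a chicken assembly, whereas the table has mouse symbols. The mouse build, annotation, counting tool and use of strand were not given in the sources used here.

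For 24 symbols found on several rows the counts were added up, and all counts were rounded. edgeR 4.0.16 (R 4.3.3) kept 12166 genes with filterByExpr (minimum count 10, minimum total 15), scaled libraries by TMM and compared the groups with glmQLFit and glmQLFTest, two-sided, with Benjamini-Hochberg adjustment over all tested genes and calls at an adjusted p under 0.05. The procedure was tested on simulated data. Standard errors were obtained from the F statistic and the log2 fold change, and 95% intervals from them. Gene positions and lengths were looked up by symbol in GENCODE M21 (GRCm38), though the authors may have used another build, and promoter windows in RefSeq.

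Libraries of a group differed by a chi-square per degree of freedom of 2.15 to 3.96, above sampling noise, so all 6 were kept as separate samples. Named genes are the 8 members, Mlxipl and, of each pathway list, the up to 6 members with the smallest adjusted p; any other gene named with a value was picked after the values were seen. The genes described and the lists were chosen with earlier results of these data known.

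The alternatives tried comprised scaling by library size only, by upper quartile, by RLE, or without Mlxipl and the 10 most abundant genes, a minimum mean CPM of 5 or no filter, limma-voom (limma 3.58.1), DESeq2 1.42.0, the replicate number as a block, each library left out in turn, other gene lengths, and 0.5 added to counts in ratios.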

Additional observations from a re-analysis of the deposited data

How the results depend on the processing

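Of the 8 genes, Prkaa2, Prkab2 and Prkag2 kept their direction and their calls under all 15 alternative fits, and Prkag3 under the 14 that tested it (a mean CPM of at least 5 left it out). Their log2 fold changes ran from 1.29 to 1.39 for Prkaa2, -0.29 to -0.19 for Prkab2, -0.60 to -0.47 for Prkag2 and -1.86 to -1.25 for Prkag3. Stk11 was not called under any of the 15, at 0.05 to 0.14. The number of genes called higher, 2 in the fit reported, was 1 with upper-quartile scaling and 1 with library size only, both through Prkag1, and 1 to 2 when each library was left out in turn. Library size only moved the median log2 fold change of all genes to -0.05, and the number of related kinases called lower from 3 to 5. Left-out libraries gave 2 to 4 of these kinases lower. Prkaa1, never called, changed sign with upper-quartile scaling (-0.02), library size only (-0.04) and a mean CPM of at least 5 (-0.01), and lay between -0.02 and 0.03 with libraries left out. Prkab1, never called, lay between -0.06 and 0.02 over all fits and at 0.02 without GFP replicate 2 and without ChREBP-beta replicate 3.

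The replicate number as a block gave 5 of the 8 genes called, 2 higher and 3 lower, and 6902 genes called against 7145. For the isoform ratios a block cannot change the mean differences (1.33, -0.23, -0.67 and -1.62 on the log2 scale), because the groups are balanced over the numbers. Deviations of libraries with the same number correlated at -0.01, 0.02 and -0.10, against -0.08 to 0.09 for different numbers. These few values show no pairing by number but cannot exclude it, and the labels do not state it. Depth limits Prkag3 most, with 43 counts over the ChREBP-beta libraries.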
